A study of Mus musculus with 9 samples.

Results

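The genes described here are 38 genes of the cell cycle and of DNA replication, measured by RNA-seq in the brain of the mouse fetus after alcohol (EtOH) exposure early in gestation. They are listed by name and role, by a rule that uses no measured value, although the list was drawn up with earlier results of these data known. Of them 5 act in the G1 phase, 4 at the step from G1 into S phase, 12 in DNA replication and 17 in mitosis. All 38 were found among the 27095 loci of the deposited table, and all 38 were among the 15455 loci with a mean level of at least 1 FPKM and a level above 0 in every group. FPKM are fragment counts scaled to exon length and library size, so levels can be compared between genes as well as between groups.

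The study compared 9 fetuses in 3 groups of 3, all wild type C57BL/6 mice (C57BL/6J in the methods) collected on gestational day 17. Control dams received an injection of lactated Ringer's solution on gestational day 7, and the other dams received 2.9 g/kg EtOH by intraperitoneal injection on the same day. Exposed fetuses were scored on collection for defects of the eye and of cortical patterning and were then divided into EtOH-exposed unaffected and EtOH-exposed affected fetuses. The affected group was therefore selected by its outward appearance among exposed fetuses, the tissue is fetal brain in the labels but cortex in the methods, and the labels do not say which fetuses shared a dam.

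For each locus the deposited table holds a single FPKM for a group of 3 fetuses, made by the authors' software, and values of single fetuses were not analysed here. There is therefore no replicate error for any value below, no test was made, and every difference is a description of 3 group values. A level at least 25% higher or at least 20% lower than in the group compared (0.32 on the log2 scale in either direction) was used only as a marker of size, and such genes are called past the marker. Depth was not recoverable either: among 3356 loci with a mean below 0.3 FPKM, no ratio between groups recurred at more than 32 loci, so no counting interval is given. Genes listed for cortical projection neurons were clearly present in all groups, with summed levels of 2923 FPKM in control, 2798 FPKM in unaffected and 3049 FPKM in affected fetuses over 10 genes. Tubb3 alone gave 1809, 1807 and 1799 FPKM of these sums. The median over the 10 genes was 101, 83.1 and 129 FPKM.

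Cells enter the cycle when cyclin D with Cdk4 or Cdk6, and then cyclin E with Cdk2, release E2F factors from the retinoblastoma protein, and E2F switches on the genes needed to copy DNA. Origins are licensed when Cdt1 loads the MCM helicase, a step that geminin blocks until the next cycle, and mitosis is later driven by cyclin B with Cdk1 and by the Polo and Aurora kinases. In the fetal cortex the dividing cells are mainly radial glia and intermediate progenitors, while the neurons they produce have left the cycle, so these transcripts are carried by only some of the cells. In whole tissue, fewer dividing cells and less RNA per dividing cell cannot be told apart.

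Replication and mitosis genes are read at different times of the cycle through different elements near their start sites. Known elements are E2F sites, typical of genes used in S phase, and the cell cycle genes homology region (CHR), read by the DREAM and MuvB complexes in genes used in G2 and mitosis and often found with CCAAT boxes bound by NF-Y. The promoters shown are windows of 300 bases, from 250 before to 50 after the start site, taken from RefSeq on build GRCm38.p6 and written 5′ to 3′ on the strand of the gene. They were chosen from mitosis genes with a CHR and replication genes with an E2F motif that have a single window, so the motif is present by choice. The genes shown lie at opposite ends of the deposited affected ratios within their role: Mki67 and Cenpa among mitosis genes, Mcm3 and Tyms among replication genes. Capitals mark the CHR (TTTGAA) in the first pair and the E2F motif (TTTNNCGC) in the second, on either strand.

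Mki67, chr7:135716330-135716629, minus strand: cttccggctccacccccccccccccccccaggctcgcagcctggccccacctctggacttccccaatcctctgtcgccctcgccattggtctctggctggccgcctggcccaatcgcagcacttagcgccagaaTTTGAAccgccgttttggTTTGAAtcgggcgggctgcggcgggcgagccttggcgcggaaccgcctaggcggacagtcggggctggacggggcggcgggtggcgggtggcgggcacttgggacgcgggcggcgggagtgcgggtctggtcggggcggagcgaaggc
Cenpa, chr5:30666636-30666935, plus strand: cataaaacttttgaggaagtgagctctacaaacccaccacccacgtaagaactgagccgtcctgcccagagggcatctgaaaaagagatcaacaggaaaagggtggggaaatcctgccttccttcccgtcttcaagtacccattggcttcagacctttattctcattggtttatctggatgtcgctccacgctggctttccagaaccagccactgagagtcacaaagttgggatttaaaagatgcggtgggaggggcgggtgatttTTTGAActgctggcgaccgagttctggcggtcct
Mcm3, chr1:20820263-20820562, minus strand: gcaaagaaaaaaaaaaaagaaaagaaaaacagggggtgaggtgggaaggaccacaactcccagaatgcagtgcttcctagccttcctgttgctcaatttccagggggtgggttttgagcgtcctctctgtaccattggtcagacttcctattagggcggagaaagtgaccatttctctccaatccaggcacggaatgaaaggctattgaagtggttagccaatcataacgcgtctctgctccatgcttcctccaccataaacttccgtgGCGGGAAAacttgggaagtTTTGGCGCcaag
Tyms, chr5:30073576-30073875, minus strand: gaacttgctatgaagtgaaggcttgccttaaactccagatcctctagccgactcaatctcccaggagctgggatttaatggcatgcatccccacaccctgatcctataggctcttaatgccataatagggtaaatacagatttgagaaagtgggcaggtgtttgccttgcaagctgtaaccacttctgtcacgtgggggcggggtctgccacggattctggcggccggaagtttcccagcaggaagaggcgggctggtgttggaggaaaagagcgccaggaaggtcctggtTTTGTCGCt

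A promoter of this table was matched for 31 of the 38 genes, and 2 of them had 2 windows. The CHR was found in 11 of 15 mitosis genes (73.3%), in 1 of 10 replication genes (Mcm2) and in none of the 3 G1 and 3 G1/S genes, against 20.2% of all 27025 genes in the table. In 10 of these 11 mitosis genes a copy lay within 60 bases before or 50 bases after the start site, and Mki67 was the one with its copies farther away, at positions -116 and -98 relative to it. Cenpa had 1 copy, 16 bases after the start site.

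The E2F motif had the reverse distribution. It was found in 6 of 10 replication genes (60%) and in 1 of 15 mitosis genes (Cdk1, 6.67%), against 5.93% of all genes. Mcm3 had 2 copies, 1 on each strand, and Tyms had 1. The CCAAT box (CCAAT on either strand) was present in 14 of 15 mitosis genes (93.3%) and in 8 of 10 replication genes (80%), against 41.1% of all genes. None of the capitals in the 4 windows overlapped a match to another of these motifs. A match of letters is not evidence that a factor binds there.

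The same arrangement appeared in other genes of both pathways. Of 57 other mitosis genes with a window 37 (64.9%) had the CHR, and of 47 other replication genes 7 (14.9%) had it. The E2F motif was found in 17 of the 47 replication genes (36.2%) and in 12 of the 57 mitosis genes (21.1%), a smaller contrast than among the 38 genes.

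**Figure D1:**
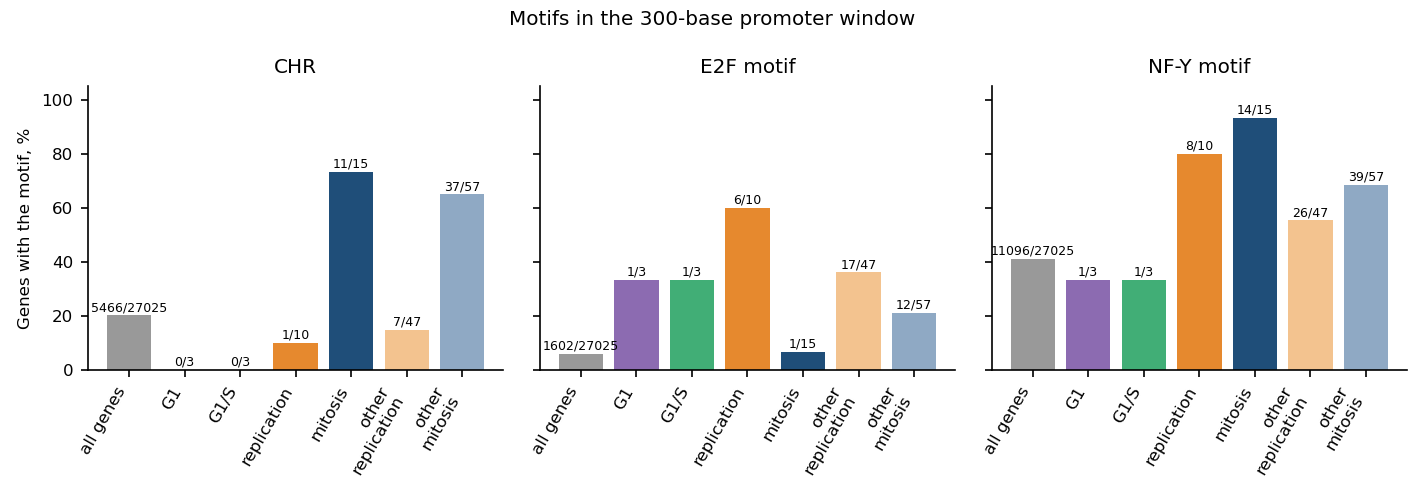
Share of genes (%) whose 300-base promoter window holds the CHR, the E2F motif or the NF-Y motif (the CCAAT box), for all genes in the table, for the 4 roles and for the other genes of replication and mitosis; the fraction above each bar gives genes with the motif over genes with a window. The CHR bar is tallest for mitosis genes (11 of 15) and the E2F bar for replication genes (6 of 10).

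The first comparison set EtOH-exposed affected against control fetuses, and asks whether genes of dividing cells differ in fetuses with defects. Of the 38 genes, 29 were higher in affected fetuses and 9 were lower, with a median log2 ratio of 0.13 against 0.02 over all loci, where 53% of loci were higher. At least 25% higher were 6 of the 38 (15.8%), against 12.6% of all loci, and at least 20% lower were 0, against 11.5% of all loci. The 6 were Mki67, Cenpe, Plk1, Cenpf, Cdk6 and Mcm3, of which 4 are genes of mitosis. With the trend of the ratios with transcript length removed, as described further on, 5 of the 38 (13.2%) were at least 25% higher, against 4.06% of all loci with a length. Of the 6 genes named, Mki67, Plk1 and Cenpe were still among them. Cenpf (0.21), Cdk6 (0.14) and Mcm3 (0.31) were not, and Ube2c (0.52) and Cdt1 (0.37) joined.

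The second comparison set EtOH-exposed unaffected against control fetuses, and describes exposure without visible defects. Here 34 of the 38 genes were higher and 4 were lower, with a median log2 ratio of 0.20 against 0.01 over all loci, where 51.7% of loci were higher. The differences were small: 2 of the 38 (5.26%), Gmnn and Tyms, were at least 25% higher, against 5.53% of all loci, and 0 were at least 20% lower, against 6.99%. The 4 lower genes were Cdk6, Mki67, Cenpe and Cenpf, and they are the 4 with the longest transcripts of the 38. Once the length trend was removed, Cdk6 stayed below 0 (-0.03), and Mki67, Cenpe and Cenpf turned to 0.08, 0.06 and 0.15.

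The third comparison set affected against unaffected fetuses directly. It shares both groups with the comparisons above and adds no new samples. The 38 genes went both ways, with 15 higher and 23 lower in affected fetuses and a median log2 ratio of -0.06 against 0.01 over all loci, where 51.2% were higher. At least 25% higher were 5 genes (13.2%), against 20.7% of all loci, and at least 20% lower were 6 (15.8%), against 18.5%. Mki67, Cenpe, Cdk6, Cenpf and Plk1 were the higher genes, and Gmnn, Tyms, Ccne2, Cenpa, Cdk4 and Cdk1 the lower ones. With the length trend removed 20 of the 38 were above 0, with a median of 0.01. Cenpe (0.26), Cdk6 (0.15) and Cenpf (0.04) were then no longer past the marker upward. Gmnn (-0.20), Cenpa (-0.23) and Cdk4 (-0.22) were no longer past it downward. Ube2c joined, at 0.36, which gave 3 genes upward against 8.84% of all loci and 3 downward against 9.21%.

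**Figure D2:**
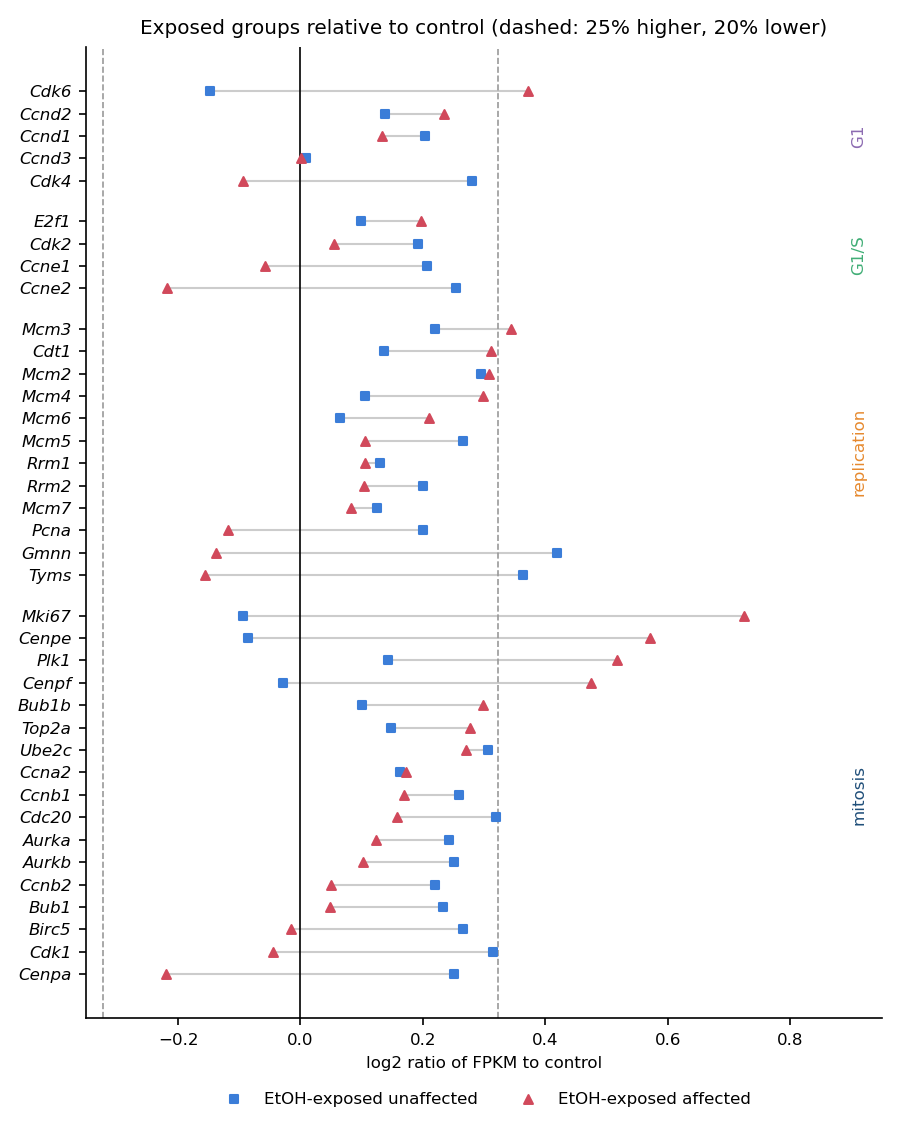
Log2 ratio of FPKM to control for each of the 38 genes, in EtOH-exposed unaffected (squares) and EtOH-exposed affected fetuses (triangles), ordered within role by the affected ratio; dashed lines mark 25% higher and 20% lower, and each symbol is 1 group value with no error. The squares are above 0 for 34 genes, and 6 triangles lie beyond the right dashed line.

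The G1 genes spanned the widest range of levels. Cdk4, the kinase partner of the D cyclins, was the most abundant of the 38, at 376 FPKM in control, 457 FPKM in unaffected and 353 FPKM in affected fetuses. Its log2 ratio was 0.28 in unaffected and -0.09 in affected fetuses against control, and -0.37 between affected and unaffected fetuses. Cdk6, the related kinase with the same partners, was the least abundant of the 38, at 2.16 FPKM in control, 1.95 FPKM in unaffected and 2.79 FPKM in affected fetuses. Its order was the opposite of that of Cdk4: the affected value was the highest, 1.29-fold above control, and the unaffected value the lowest.

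Among the D cyclins, which pass growth signals on to these kinases, Ccnd2 was the most abundant, at 82.0 FPKM in control, 90.3 FPKM in unaffected and 96.5 FPKM in affected fetuses. Ccnd1 was at 16.9, 19.5 and 18.6 FPKM in the same order of groups. Ccnd3 was at 17.3, 17.4 and 17.4 FPKM, and none of its 3 log2 ratios was larger than 0.01 in size. The deposited values of Ccnd3 were thus level, but its ratio between affected and unaffected fetuses was 0.14 with the length trend removed, and its unaffected ratio against control -0.05. The higher value of Ccnd2 in affected than in unaffected fetuses (0.10) turned to -0.20.

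The G1/S genes were all of low abundance, and all 4 were higher in unaffected than in control fetuses, with log2 ratios from 0.10 to 0.25. Ccne2, an E-type cyclin that activates Cdk2, was at 3.31 FPKM in control, 3.95 FPKM in unaffected and 2.85 FPKM in affected fetuses. The affected value was the lowest of the 3, at 0.721-fold of the unaffected value. Ccne1, the other E cyclin, was at 4.96, 5.72 and 4.76 FPKM and had the same order of groups, although its affected ratio against control turned from -0.06 to 0.0091 with the length trend removed. Cdk2, their kinase, was at 6.44, 7.36 and 6.70 FPKM, again highest in unaffected fetuses. E2f1, an E2F factor that activates S-phase genes, was the one G1/S gene highest in affected fetuses, at 6.54, 7.001 and 7.49 FPKM.

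All 12 replication genes were higher in unaffected than in control fetuses, with a median log2 ratio of 0.20. In affected fetuses 9 of the 12 were higher than control and 3 were lower (Pcna, Gmnn and Tyms), with a median of 0.11. Summed over the 12 genes, the level was 411 FPKM in control, 470 FPKM in unaffected and 424 FPKM in affected fetuses. After the length trend was removed, 10 of the 12 were above 0 in affected fetuses: Pcna and Gmnn turned, to 0.03 and 0.09, Tyms stayed below, at -0.21, and Rrm1 came to -0.0010.

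The MCM genes encode the 6 subunits of the replicative helicase, and all 6 were above control in both exposed groups. Mcm3 was at 15.4 FPKM in control, 17.99 FPKM in unaffected and 19.6 FPKM in affected fetuses, 1.27-fold above control in the affected group. Mcm2 was at 17.3, 21.3 and 21.4 FPKM, so that both exposed groups were alike. Mcm4 was at 14.2, 15.3 and 17.5 FPKM. Like Mcm3 and Mcm6, it was highest in affected fetuses. Mcm6 was at 29.2, 30.5 and 33.8 FPKM. Mcm7, the most abundant subunit, was at 55.1, 60.2 and 58.4 FPKM, and Mcm5 at 15.6, 18.7 and 16.8 FPKM. Both were highest in unaffected fetuses. The 6 subunits act as one ring, yet their affected log2 ratios against control ran from 0.08 for Mcm7 to 0.34 for Mcm3.

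The licensing factors, which have opposite roles, had opposite orders in the exposed groups. Cdt1, which loads the helicase, was the least abundant replication gene, at 5.80 FPKM in control, 6.37 FPKM in unaffected and 7.19 FPKM in affected fetuses. Gmnn (geminin), which binds and inhibits Cdt1, was at 12.8 FPKM in control, 17.2 FPKM in unaffected and 11.7 FPKM in affected fetuses. As deposited, Gmnn had the largest unaffected ratio of the 38 genes, 1.34-fold, and the most negative ratio between affected and unaffected fetuses, -0.56 on the log2 scale. With the length trend removed Tyms came first in both, at 0.37 and -0.57. Gmnn was then at 0.30 and -0.20, no longer past the marker. Cdt1 was just under the marker in affected fetuses, with a log2 ratio of 0.31.

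Pcna, the sliding clamp that holds the polymerase on DNA, was the most abundant replication gene, at 147 FPKM in control, 168 FPKM in unaffected and 135 FPKM in affected fetuses. Tyms, the thymidylate synthase that makes dTMP, was at 19.4, 24.99 and 17.4 FPKM, with log2 ratios of 0.36 in unaffected and -0.16 in affected fetuses against control. Between affected and unaffected fetuses its log2 ratio was -0.52. Pcna, Gmnn and Tyms shared the order unaffected, control, affected from high to low in the deposited values, which only Tyms kept with the length trend removed. The subunits of ribonucleotide reductase, which makes deoxynucleotides, were above control in both exposed groups by a little: Rrm1 was at 35.4, 38.8 and 38.1 FPKM. Rrm2 was at 43.9, 50.4 and 47.1 FPKM.

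Of the 17 mitosis genes, 14 were higher and 3 lower in affected than in control fetuses, with a median log2 ratio of 0.17. In unaffected fetuses 14 were also higher and 3 lower, with a median of 0.23, but the lower genes were not the same: Cdk1, Birc5 and Cenpa were lower in affected fetuses, and Mki67, Cenpe and Cenpf in unaffected fetuses. Summed over the 17 genes, the level was 309 FPKM in control, 362 FPKM in unaffected and 350 FPKM in affected fetuses. These directions moved with transcript length, with a Spearman correlation of 0.69 across the 17 genes in affected against unaffected fetuses. After removal of the length trend, all 17 were above 0 in unaffected fetuses, and 14 in affected fetuses, where Birc5 turned to 0.25 and Bub1 to -0.0059.

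Mki67, the gene of the proliferation marker Ki-67, a protein of the surface of mitotic chromosomes, had the largest deposited affected ratio of the 38 genes. It lies on chromosome 7 at 135689784 to 135716361 on the minus strand (mm10). Its level was 6.49 FPKM in control, 6.08 FPKM in unaffected and 10.7 FPKM in affected fetuses. The affected value was 1.65-fold above control and 1.76-fold above unaffected, and the first of these ratios was higher than that of 97.6% of all loci. Control and unaffected values lay close together, and only the affected value stood apart. With the length trend removed the log2 ratio of Mki67 against control went from 0.72 to 0.46, below Plk1 (0.58) and Ube2c (0.52). Against unaffected fetuses it went from 0.82 to 0.38.

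Cenpe and Cenpf, large proteins of the outer kinetochore that help to attach chromosomes to microtubules, had the same order. Cenpe (chromosome 3, 135212537 to 135273611, plus strand) was at 2.57 FPKM in control, 2.42 FPKM in unaffected and 3.81 FPKM in affected fetuses, 1.48-fold above control in the affected group. Cenpf (chromosome 1, 189640606 to 189688086, minus strand) was at 2.96, 2.899 and 4.11 FPKM, 1.39-fold above control. Both were of low abundance, the least of the mitosis genes. With the length trend removed the log2 ratio of Cenpe was 0.33 in affected fetuses against control and 0.26 against unaffected. That of Cenpf went from 0.48 to 0.21 against control and from 0.50 to 0.04 against unaffected. Cenpa, by contrast, the histone H3 variant that marks the centromere, was at 20.5, 24.4 and 17.6 FPKM. Its log2 ratio against control was 0.25 in unaffected and -0.22 in affected fetuses, the most negative affected ratio of the 38 genes as deposited, with that of Ccne2 the same to 2 decimals. Without the length trend Cenpa (1466 nt) was at -0.07 in affected fetuses against control, and Ccne2 (-0.25), Tyms (-0.21) and Cdk1 (-0.08) were more negative.

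Plk1, the Polo kinase that acts from mitotic entry to cytokinesis (chromosome 7, 122159439 to 122169873, plus strand), was at 11.8 FPKM in control, 13.0 FPKM in unaffected and 16.9 FPKM in affected fetuses. Its affected ratio was 1.43-fold against control and 1.30-fold against unaffected. Cdk1, the kinase that drives entry into mitosis, was at 17.5, 21.8 and 17.0 FPKM, with a log2 ratio of 0.32 in unaffected fetuses and of -0.05 in affected fetuses against control. The kinases of mitosis therefore did not share an order of groups. Aurka, the Aurora kinase of the centrosome and spindle, was at 12.6, 14.9 and 13.7 FPKM. Aurkb, the Aurora kinase of the chromosomal passenger complex, was at 12.3, 14.6 and 13.2 FPKM, and the Aurora genes were both highest in unaffected fetuses as deposited. Their ratios between affected and unaffected fetuses, -0.12 and -0.15, turned to 0.04 and 0.02 with the length trend removed.

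Birc5 (survivin), a partner of Aurkb in that complex, was at 24.9 FPKM in control, 30.0 FPKM in unaffected and 24.7 FPKM in affected fetuses. The mitotic cyclins kept the order unaffected, affected, control for Ccnb1 (20.1, 24.0 and 22.6 FPKM in control, unaffected and affected fetuses) and for Ccnb2 (16.9, 19.7 and 17.5 FPKM). Ccna2, the A cyclin that acts in S phase and G2, was at 33.2, 37.2 and 37.4 FPKM, with the exposed groups alike. Survivin and the B cyclins were highest in unaffected fetuses as deposited, but the ratio between affected and unaffected fetuses turned with the length trend removed for Birc5, from -0.28 to 0.12, and for Ccnb2, from -0.17 to 0.07, and not for Ccnb1 (-0.09 and -0.03).

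Ube2c, the ubiquitin-conjugating enzyme that works with the anaphase-promoting complex, was the most abundant mitosis gene, at 58.9 FPKM in control, 72.8 FPKM in unaffected and 71.0 FPKM in affected fetuses. Cdc20, the activator of that complex, was at 20.2, 25.2 and 22.5 FPKM. Both were above control in both exposed groups and just under 25% above control in unaffected fetuses. Of the spindle checkpoint kinases, Bub1 was at 5.05, 5.93 and 5.22 FPKM, highest in unaffected fetuses. Bub1b was at 9.93, 10.6 and 12.2 FPKM, highest in affected fetuses. Top2a, the topoisomerase that untangles DNA in dividing cells, was at 32.8, 36.4 and 39.7 FPKM and was also highest in affected fetuses as deposited. Removal of the length trend turned the ratio between affected and unaffected fetuses for Top2a, from 0.13 to -0.10, for Cdc20, from -0.16 to 0.03, and for Ube2c, from -0.04 to 0.36.

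**Figure D3:**
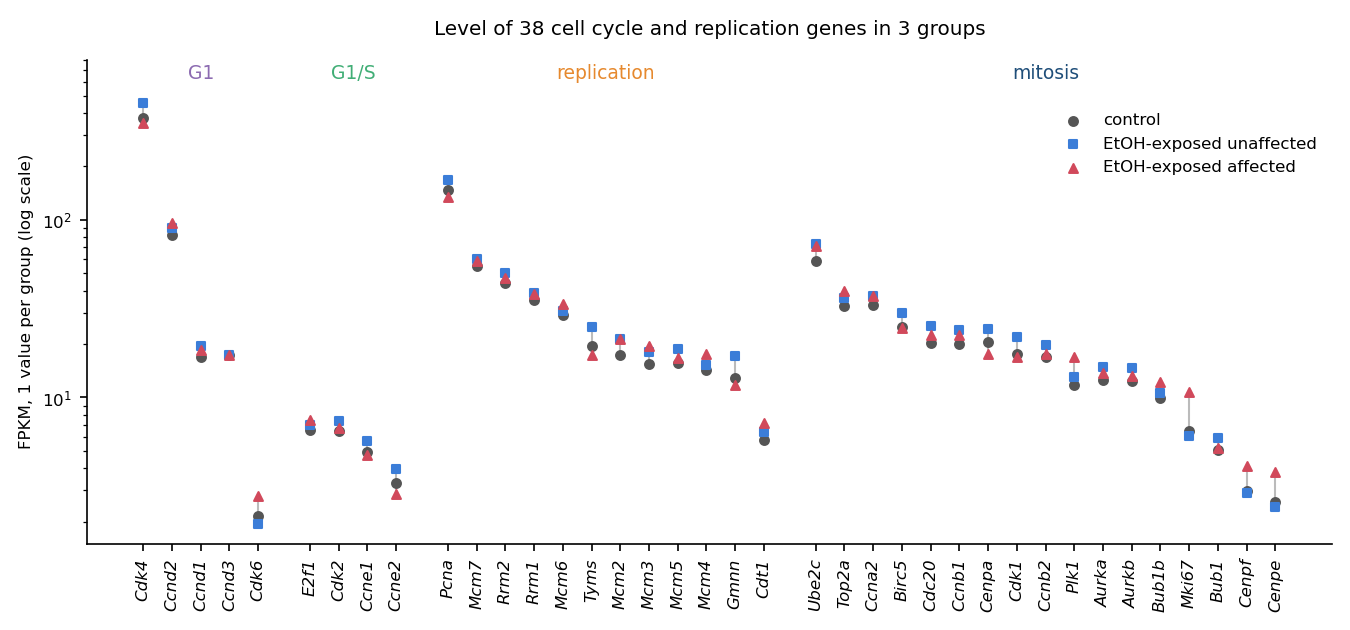
Level (FPKM, log scale) of each of the 38 genes in control (circles), EtOH-exposed unaffected (squares) and EtOH-exposed affected fetuses (triangles), ordered by mean level within the 4 roles; each symbol is 1 value per group, and no error can be drawn. Levels run from 1.95 FPKM for Cdk6 to 457 FPKM for Cdk4 in unaffected fetuses, and the triangles of Mki67, Cenpe, Cenpf, Plk1 and Cdk6 stand at least 25% above both other symbols.

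Setting replication against mitosis, the medians of both roles, from the ratios as deposited, were within 0.1 of each other in every comparison. Replication was lower than mitosis by 0.06 in log2 in affected fetuses against control (0.11 against 0.17). In unaffected fetuses against control the medians were 0.20 and 0.23. Between affected and unaffected fetuses they were -0.03 and -0.09. In affected fetuses against control, the replication genes ran from -0.16 to 0.34 and the mitosis genes from -0.22 to 0.72. With the length trend removed the medians for replication and mitosis were 0.13 and 0.21 in affected against control, 0.16 and 0.16 in unaffected against control, and -0.06 and 0.04 in affected against unaffected fetuses. Mitosis genes then had the higher median in affected against unaffected fetuses, where without the removal replication genes had it. Among the other genes of both pathways, described below, the medians in affected against control were -0.01 for 55 replication genes and 0.17 for 63 mitosis genes.

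The ratios as deposited were also set against the promoter motifs, and no medians by motif were taken with the length trend removed. The 12 genes with a CHR had a median log2 ratio of 0.27 in affected fetuses against control and the 19 without it 0.10, but the ranges overlapped, with Cenpa at -0.22 and Mki67 at 0.72 both carrying it. In unaffected fetuses against control the same medians were 0.23 and 0.20. The 9 genes with the E2F motif and the 22 without it had medians of 0.11 and 0.14 in affected fetuses, and of 0.19 and 0.20 in unaffected fetuses. The 24 genes with a CCAAT box and the 7 without it had medians of 0.14 and -0.02 in affected fetuses against control, 0.20 and 0.21 in unaffected fetuses against control, and -0.04 and -0.27 in affected against unaffected fetuses. The ranges in affected fetuses against control overlapped, from -0.22 to 0.72 with it and from -0.16 to 0.37 without it. The medians of -0.02 and -0.27 are the values of Birc5 and Ccne1. With the length trend removed, as described further on, these values were 0.25 and -0.12. Mcm3 and Tyms, whose windows are printed above, both carry the E2F motif, a condition of their choice, and had affected ratios of 0.34 and -0.16.

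Transcript length moved with the ratios, over all loci and among the 38 genes. Over the 12372 loci with a length in the annotation (80.1% of those past the filter), Spearman's correlation of the log2 ratio with transcript length across loci was 0.56 in affected fetuses against control, -0.52 in unaffected against control, and 0.64 between affected and unaffected fetuses. Over the 38 genes the same values were 0.57, -0.57 and 0.63. These are correlations across genes of the same 3 groups of libraries, and genes are not independent replicates. In the decile of loci with the longest transcripts the median log2 ratio was 0.24 in affected and -0.14 in unaffected fetuses against control, and in the decile with the shortest it was -0.27 and 0.12.

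Several of the genes that differed most were at the ends of this range. Cenpf (11130 nt), Mki67 (10061 nt), Cenpe (7910 nt) and Cdk6 (6997.5 nt, the median of its principal transcripts) have the longest transcripts of the 38 and were 4 of the 6 genes past the marker in affected fetuses against control. Gmnn has one of the shortest, 1045 nt. Split at the median length of all loci, 2950.25 nt, the 17 longer genes had median log2 ratios of 0.28 in affected and 0.14 in unaffected fetuses against control. The 21 shorter genes had medians of 0.10 and 0.24, and all 21 were higher in unaffected than in control fetuses. The cause of the length trend was not tested.

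With the trend removed, by taking from each gene the running median of loci of like length, most of the 38 genes were still above 0 in both exposed groups against control. In affected fetuses 31 of the 38 were above 0, with a median of 0.15. In unaffected fetuses 36 were above 0, also with a median of 0.15. Between affected and unaffected fetuses 20 of the 38 were above 0, and the median was 0.01. The direction of a gene turned for 6 of the 38 in affected against control, for 4 in unaffected against control and for 11 in affected against unaffected fetuses.

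The genes past the marker changed with it. In affected fetuses against control 5 of the 38 were then higher, against 4.06% of all loci with a length, and 0 were lower, against 5.84%. The 5 were Plk1 (0.58), Ube2c (0.52), Mki67 (0.46), Cdt1 (0.37) and Cenpe (0.33), with the value after removal in parentheses. Cenpf and Cdk6, at 0.21 and 0.14, were no longer among them, nor was Mcm3, at 0.31. In unaffected fetuses against control Tyms remained past the marker, at 0.37, so that 1 gene was higher against 1.31% of all loci, and 0 were lower against 1.41%. Between affected and unaffected fetuses 3 were higher, Plk1, Mki67 and Ube2c, against 8.84% of all loci, and 3 lower, Tyms, Ccne2 and Cdk1, against 9.21%. Tyms at -0.57, Ccne2 at -0.48 and Cdk1 at -0.39 have transcripts of near-median length, so their values moved little, while Gmnn went from -0.56 to -0.20. Plk1, at 2199 nt, was past the marker in affected fetuses against control with and without the trend.

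**Figure D4:**
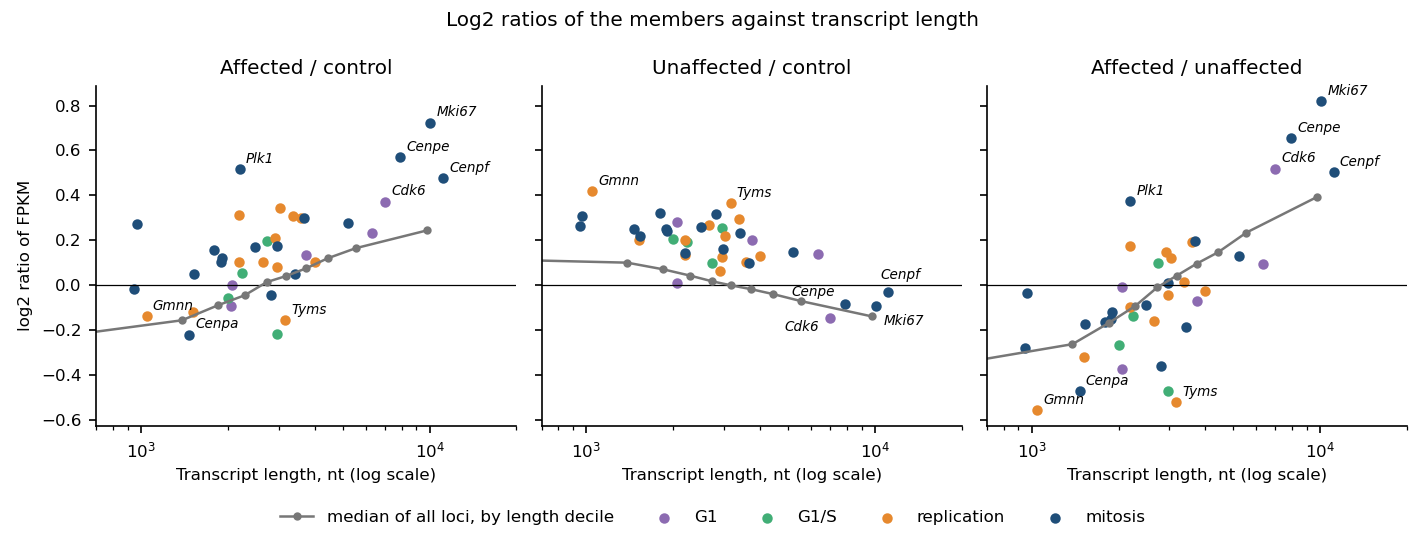
Log2 ratio of FPKM against transcript length (nt, log scale) for the 38 genes, coloured by role, in the 3 comparisons; the grey line joins the medians of all loci by decile of length. The line climbs from -0.27 to 0.24 in affected against control and descends from 0.12 to -0.14 in unaffected against control, and most of the 38 genes lie above it in both.

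Other genes of the same pathways, listed for their function, were described in the same way. Of 55 further replication genes past the filter, 51 were higher in unaffected than in control fetuses, with a median log2 ratio of 0.16. At least 25% higher were 3 (5.45%), close to the 5.53% of all loci, and 0 were at least 20% lower, against 6.99%. In affected fetuses against control they were divided, 27 higher and 28 lower with a median of -0.01, of which 10 (18.2%) were at least 25% higher, against 12.6% of all loci, and 3 (5.45%) at least 20% lower, against 11.5%. Set against unaffected fetuses, affected fetuses had 5 of these genes (9.09%) past the marker upward, against 20.7% of all loci, and 16 (29.1%) downward, against 18.5%. With the length trend removed these counts were 6 and 1 of 55 in affected against control, against 4.06% of all loci upward and 5.84% downward, 3 and 0 in unaffected against control, against 1.31% and 1.41%, and 1 and 6 in affected against unaffected fetuses, against 8.84% and 9.21%. Ticrr, which helps to fire origins, was at 1.15 FPKM in control, 1.23 FPKM in unaffected and 1.78 FPKM in affected fetuses. Rpa3, the small subunit of the protein that coats single-stranded DNA, was at 53.7, 63.2 and 39.1 FPKM. Ticrr has a transcript of 7199 nt and Rpa3 one of 670 nt, so these genes too stand at the ends of the length range. Chtf18, part of a loader of the Pcna clamp, and Dtymk, the kinase that phosphorylates dTMP, had affected log2 ratios of 0.51 and -0.40. Without the length trend Chtf18 was at 0.46 and Ticrr at 0.40, and the short transcripts of Dtymk (1003 nt) and Rpa3 were at -0.16 and -0.15, no longer past the marker.

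Of 63 further mitosis genes, 61 were higher in unaffected than in control fetuses, with a median of 0.20, of which 6 (9.52%) were at least 25% higher, against 5.53% of all loci, and 0 at least 20% lower, against 6.99%. In affected fetuses 48 were higher and 15 lower, with a median of 0.17, of which 13 (20.6%) were at least 25% higher, against 12.6% of all loci, and 2 (3.17%) at least 20% lower, against 11.5%. With affected set against unaffected fetuses, 6 (9.52%) were past the marker upward, against 20.7% of all loci, and 12 (19.0%) downward, against 18.5%. The counts upward and downward with the length trend removed were 8 and 1 of 63 in affected against control, against 4.06% of all loci upward and 5.84% downward, 4 and 0 in unaffected against control, against 1.31% and 1.41%, and 1 and 4 in affected against unaffected fetuses, against 8.84% and 9.21%. Arhgap11a had the largest deposited affected log2 ratio of this list, 0.53, followed by Aspm, the spindle pole gene whose loss causes microcephaly, with 0.49. Without the length trend other genes led the list, Arhgap11a was at 0.38 and Aspm, a transcript of 9867 nt, at 0.24, and its ratio between affected and unaffected fetuses went from 0.41 to -0.02. Cenpw and Cenpp, genes of the inner kinetochore, were the lowest as deposited, at -0.42 and -0.34. After removal of the length trend Cenpw and Cenpp were at -0.27 and -0.12. Mad2l1, at -0.27 as deposited, was then the lowest, at -0.42, and the 1 gene past the marker downward. With the length trend removed, 53 of the 63 were above 0 in affected and 60 in unaffected fetuses.

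Regulators of these programmes were listed next. The list of 29 held the E2F, Rb and MuvB genes, Mybl2 and Foxm1, and also Myc genes and regulators of Cdk activity such as Wee1, Skp2 and Cdk7. Of these, 23 were higher in unaffected fetuses, where 51.7% of all loci were, with 0 past the marker against 5.53% of all loci upward and 6.99% downward. In affected fetuses 18 were higher, where 53% of all loci were, with 5 (17.2%) at least 25% higher, against 12.6% of all loci, and 0 at least 20% lower, against 11.5%. In affected against unaffected fetuses 5 (17.2%) were past the marker upward and 4 (13.8%) downward, both below the 20.7% and 18.5% of all loci. With the length trend removed the counts upward and downward were 3 and 1 of 29 in affected against control, against 4.06% of all loci upward and 5.84% downward, 1 and 0 in unaffected against control, against 1.31% and 1.41%, and 2 and 2 in affected against unaffected fetuses, against 8.84% and 9.21%. Foxm1, the factor that joins the MuvB complex at CHR promoters, was measured in a locus joined with 4933413G19Rik and was at 6.77 FPKM in control, 6.86 FPKM in unaffected and 9.34 FPKM in affected fetuses. E2f7, a repressing E2F, was at 1.73, 1.91 and 2.69 FPKM. Their unaffected log2 ratios were 0.02 and 0.14, both were highest in affected fetuses, and both stayed near or past the marker with the length trend removed, at 0.32 for Foxm1 and 0.51 for E2f7. Rbbp4, a histone chaperone that is part of MuvB and other complexes, and Mnat1, a subunit of the Cdk-activating kinase, had the lowest affected log2 ratios, -0.26 and -0.19 (-0.38 and -0.16 without the length trend).

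Genes that restrain the cycle or repair DNA were listed as well. Of 15 genes of Cdk inhibitors and p53 targets, the median log2 ratio was 0.11 in unaffected and -0.01 in affected fetuses against control, with 1 gene (6.67%) at least 25% higher in each of these comparisons, against 5.53% and 12.6% of all loci, and, in affected fetuses, 1 at least 20% lower, against 11.5%. That gene was Cdkn2d, an inhibitor of Cdk4 and Cdk6, with -0.33 (-0.19 without the length trend, where 0 of the 15 were lower), and Ccng1, a p53 target, had -0.26 (-0.31 without the trend). The higher one in affected fetuses was Sesn2, a stress-induced p53 target, with 0.36 (0.31 without the trend). Trp53 itself was at 46.0, 47.6 and 54.5 FPKM in control, unaffected and affected fetuses. Its affected log2 ratio was 0.24 against control and 0.19 against unaffected fetuses. Without the length trend these ratios were 0.36 and 0.39, both past the marker. In affected against control Trp53 was then the 1 gene of the 15 at least 25% higher, against 4.06% of all loci, in place of Sesn2. Of 18 genes of the checkpoint and of DNA repair, the medians were 0.09 and 0.12, with 2 (11.1%, against 5.53% of all loci) and 3 genes (16.7%, against 12.6%) at least 25% higher and 0 at least 20% lower in unaffected and affected fetuses. After removal of the length trend the affected median was 0.0037, with 1 gene higher and 1 lower against 4.06% and 5.84% of all loci, and 3 were higher in unaffected fetuses against 1.31%. Rad54l, a gene of recombination, and Fancd2, of crosslink repair, had affected ratios of 0.37 each, and Brca1 and Rad1 had -0.21 each. These pairs parted without the length trend, with Rad54l at 0.34 and Fancd2 at 0.20, and Brca1 at -0.43 and Rad1 at -0.06. Between affected and unaffected fetuses the inhibitors and p53 targets had 0 genes past the marker upward and 2 (13.3%) downward, and the checkpoint and repair genes 2 (11.1%) and 0, against 20.7% of all loci upward and 18.5% downward. Without the length trend these were 2 and 2, and 0 and 2, against 8.84% and 9.21% of all loci.

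Against control, genes that mark the dividing cells of the cortex moved in part with the cell cycle genes. Of 8 genes of intermediate progenitors, 7 were higher in affected than in control fetuses, with a median log2 ratio of 0.30, and 6 in unaffected fetuses, with a median of 0.17. Their summed level was 200 FPKM in control, 214 FPKM in unaffected and 239 FPKM in affected fetuses. The 12 genes of radial glia had medians of 0.24 and 0.08, but their summed level, 2505, 2664 and 1901 FPKM, was lowest in affected fetuses, since Fabp7, the most abundant of them, had an affected log2 ratio of -0.58. Without the length trend the ratio of Fabp7, a transcript of 804 nt, was -0.29. In affected fetuses 4 radial glia genes (33.3%) were at least 25% higher, against 12.6% of all loci, and 3 (25%) at least 20% lower, against 11.5%. The radial glia list therefore gave no single direction. Between affected and unaffected fetuses the median was 0.15 for intermediate progenitors and 0.03 for radial glia, against -0.06 for the 38 genes. Without the length trend these medians were 0.22, 0.07 and 0.01. Btg2 and Gadd45g stand both in the intermediate progenitor list and in that of Cdk inhibitors and p53 targets.

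Markers of other cells also differed between the groups. The 10 projection neuron genes were all lower in unaffected than in control fetuses, with a median of -0.22, and 9 of 10 were higher in affected fetuses, with a median of 0.32. The 5 loci of red blood cell genes were all higher in unaffected fetuses, with a median of 0.40 and a summed level of 7519 FPKM against 5813 FPKM in control. In affected fetuses 4 of the 5 were lower, with a sum of 3648 FPKM. The 10 genes of the ventral telencephalon had medians of 0.20 in unaffected and 0.08 in affected fetuses, the 6 genes of choroid plexus 0.26 and 0.18, and the 8 genes of endothelium -0.08 and 0.28. The 6 microglia genes past the filter had medians of -0.04 and -0.34, and the 7 meningeal genes of -0.12 and -0.06. Several of these values were smaller with the length trend removed: the affected median was -0.17 for microglia and -0.02 for red blood cell genes, and the unaffected median of the latter was 0.27. For endothelium the affected median was then 0.17, and for projection neurons 0.21. It was larger in size for choroid plexus, at 0.31, and for meninges, at -0.18. For microglia the unaffected median was also larger in size, at -0.10. Red blood cell precursors divide in the fetus, and the part of these cell types, of transcript length and of the choice of tissue in the values of the 38 genes was not tested.

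**Figure D5:**
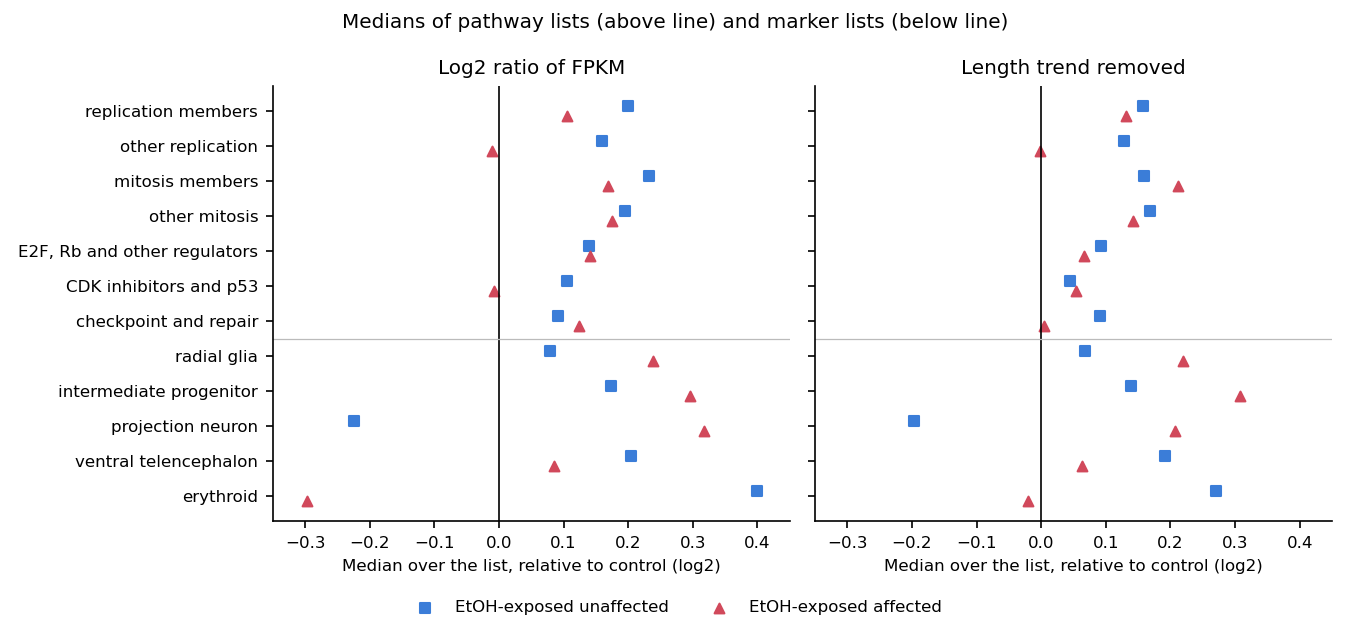
Median log2 ratio to control over the genes of each list, in EtOH-exposed unaffected (squares) and EtOH-exposed affected fetuses (triangles), as deposited (left) and with the length trend removed (right); pathway lists stand above the line and the 5 marker lists drawn stand below it. The replication and mitosis medians in unaffected fetuses lie between 0.13 and 0.23 in both panels, and the projection neuron genes lie on the other side of 0 in unaffected fetuses (-0.22 and -0.20).

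Some values carry a further limit of counting. For 11 of the 38 genes an exon overlaps one of a neighbouring gene in the annotation, and whether the counting used strand is not given in the sources used here, so reads in the shared stretch cannot be assigned to either gene. Among the genes past the marker in a comparison these are Cdk4 (641 nt shared with Tspan31), Ube2c (592 nt with Tnnc2, of a transcript of 967 nt, past the marker only with the length trend removed), Ccne2 (336 nt with Ints8), Plk1 (156 nt with Gm44985) and Cdk6 (110 nt with Gm17590). Ccnd1 was measured in a locus joined with the microRNA gene Mir3962. The annotation also lists 6 pseudogenes named after members: Pcna-ps1, Pcna-ps2, Tyms-ps, Ccnb1-ps, Ccnb2-ps and Ccnd3-ps. How their reads were divided is not known, and the levels of Pcna, Tyms, Ccnb1, Ccnb2 and Ccnd3 are uncertain to that extent.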

How the data were processed

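RNA from 9 mouse fetuses, 3 per group, was sequenced by the authors as paired-end libraries made with an Illumina TruSeq kit. The methods name STAR as well as Bowtie with TopHat as aligners to mm10, and the submitters' processing notes name Bowtie2 2.2.4.0, Cufflinks and Cuffdiff. The deposited table gives FPKM computed by the authors with the Cufflinks suite, 1 value per group and locus, and 0 columns of single animals. It also holds fold changes, test statistics, p-values and q-values of the authors' own comparisons, which were not used here. With 1 value per group no test was made.

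From the deposited FPKM, log2 ratios between groups were computed with Python 3.11.15 and pandas 2.3.3, with a pseudocount of 0, over 15455 loci with a mean of at least 1 FPKM and a value above 0 in every group. The code was tested on simulated data. Past the marker means at least 25% higher or at least 20% lower. Lengths are those of principal transcripts in GENCODE M21 (GRCm38, which is mm10), and the length trend is a running median over 501 loci. Loci were matched by gene name. Exon overlaps also came from GENCODE M21, and motif matches were made on both strands of RefSeq windows.

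The genes named in full are those past the marker in affected fetuses against control or unaffected, the extremes of each role by level, and the most positive and most negative ratios of each comparison; of other pathway genes, up to 4 per list were taken by the largest affected ratios. The 38 genes and all lists were chosen with earlier results of these data known. Alternatives were other folds, pseudocounts, filters and centring, joined loci left out, and removal of the length trend.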

Additional observations from a re-analysis of the deposited data

How the results depend on the processing

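No paired analysis was possible because the table holds 1 value per group and no replicate numbers, and leaving out a fetus in turn was not possible for the same reason. A median was taken as kept where it moved by less than 0.1 in log2, which is more than the size of the smallest medians. On that measure all 36 medians of the replication and mitosis genes under other pseudocounts, filters, centring and without joined loci were kept, none changed sign and the largest shift was 0.03. Several of these medians could not move, and they say nothing on robustness. Dropping the filter adds none of the 38 genes, and leaving out joined loci removes only Ccnd1, a G1 gene. The filter at 5 FPKM keeps all 12 replication genes. Of the medians with the length trend removed 10 were kept, with a largest shift of 0.07 among those kept. The other 2 moved and changed sign, both of the mitosis genes in affected against unaffected fetuses. Of the counts 18 stayed within 1.5 times, while 3 were larger and 9 smaller by more than that. Counts of genes past the marker depend on where it is set. At 1.1-fold they were 21 in affected against control, 27 in unaffected against control and 23 in affected against unaffected, and at 1.5-fold 1, 0 and 2. At 1.1-fold the higher and lower genes were 18 and 3, 26 and 1, and 9 and 14, where the shares of all loci were 33.5% and 28.9%, 19.4% and 20.97%, and 37.2% and 35.01%. The genes past 1.5-fold were all higher, where 3.47% and 7.19% of all loci were higher in affected against control and against unaffected. With a mean of at least 5 FPKM, which leaves 34 of the 38 genes and removes Cdk6, Cenpe and Cenpf among others, 3 were past the marker in affected against control, all higher, against 8.82% of loci, and 7 in affected against unaffected, 2 higher against 17.1% and 5 lower against 19.3%. With the length trend removed, 1 was past in unaffected against control and 6 in affected against unaffected, and the median of the mitosis genes in affected against unaffected moved from -0.09 to 0.043. With lengths taken over all transcripts, an alternative chosen after seeing the data, these values were 1, 6 and 0.019. What causes the length trend was not tested. Values per fetus and depth per library were not at hand, and without them no difference can be set against the spread between fetuses.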
